A study of Caenorhabditis elegans with 3 samples.

Results

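The histone-modifier genes described here were set-16 and ash-2, which encode parts of histone H3 lysine 4 (H3K4) methyltransferase complexes, and mys-2, which encodes a MYST-family histone acetyltransferase. They were taken by symbol from tables of intervals enriched for trimethylated H3K4 (H3K4me3) in whole Caenorhabditis elegans. They are 3 of the 896 gene names listed in either table. In the F14' table they held 3 of 639 intervals, and in the F11 table mys-2 alone was listed, with 1 of 95 intervals. The genes were chosen by their presence in these tables, with the intervals, folds and tags already known, so those values are given as a description and carry no test.

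Each library was made from wild-type whole nematodes, fed Escherichia coli OP50 on agar medium at 20 °C, and precipitated with an antibody against H3K4me3. F14' worms came from the exposed line and were raised in K-medium without drug. Their recorded values are generation 14, with 11 exposed generations of 6 days each. The labels also call them the first progeny of that line without exposure, which does not match generation 14 after 11 exposed generations. The number of generations without drug up to F14' is therefore not known here. F11 worms were exposed to the sulfonamide antibiotic sulfamethoxazole in K-medium, for 6 days in each of 11 generations. Control worms were kept in K-medium without drug. The labels set both tables against this library, so by label they share it. The F14' table itself does not name the library behind its background and, unlike the F11 table, holds no false discovery rate. Whether the F14' values were called against the control is therefore not known here. Each of the 3 groups had 1 library, no value below has a replicate check, and intervals around a value cover counting error only. The drug dose and the generation of the control are not given in the sources used here, and the control was not analysed by itself. Total depth is unknown, and tags per listed interval ran between 280 and 44316 in F14' and between 346 and 31515 in F11. Every tissue is mixed in these samples, so fewer marked cells and less mark per cell cannot be told apart.

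H3K4me3 is laid down around the starts of active genes by complexes that join a SET-domain enzyme to a shared core. SET-16 is the worm relative of the mammalian MLL3 and MLL4 enzymes, and ASH-2 is a core subunit that the enzymes need for full activity. In worms, loss of ASH-2 in the parents lengthens the life of descendants that carry the normal gene again. That made ASH-2 loss a model for memory across generations. MYS-2 belongs to the same family as the MOF enzyme of flies and mammals, which acetylates histone H4.

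The set-16 interval in F14' lay at the front of a gene pair that faces apart. It covered chromosome III from 13642774 to 13643850 (ce10, as are all coordinates here), 1077 bp wide, and the authors classed it as promoter. The start of set-16 (plus strand, 13643937) was 87 bp outside the interval. The interval centre was 625 bp upstream of that start, a deposited distance of -625 bp. The interval instead contained the start of drr-2 (minus strand, 13643437), a gene named for its response to dietary restriction that encodes a translation initiation factor of the eIF4H kind. The summit was 44 bp inside drr-2 and 544 bp upstream of set-16, if the deposited summit is an offset added to the interval start. The remaining listed gene, T12D8.10, also on the minus strand, started 548 bp beyond the other edge. The starts of set-16 and drr-2 were 500 bp apart.

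The set-16 interval was small. It held 316 tags, or 293 tags per kb (exact Poisson 95% interval 262 to 328). The median over the 639 F14' intervals was 301 tags per kb, so its density was that of an ordinary interval in this table. Its width was among the narrowest, with 2.35% of F14' intervals narrower. The fold over the caller's background, which like all folds, scores and classes here is the authors' own value, was 2.83 and ranked 187 of 639. By score, which is -10 times the base-10 logarithm of p, it ranked 474 with 41.9. The F14' scores began at 30.01.

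The ash-2 interval had the same layout with a wider gap. It covered chromosome II from 11978559 to 11979900, 1342 bp wide, and was also classed as promoter. The start of ash-2 (plus strand, 11980410, shared by its 3 RefSeq entries) was 510 bp outside the interval, and the centre was 1181 bp upstream of it. The interval contained both listed starts of Y17G7B.20 on the minus strand, at 11979479 and 11979614, which are 931 and 796 bp from the start of ash-2. RefSeq now names that gene nosr-1. The summit was 455 bp inside Y17G7B.20 from the first of these starts and 1386 bp upstream of ash-2.

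**Figure D1:**
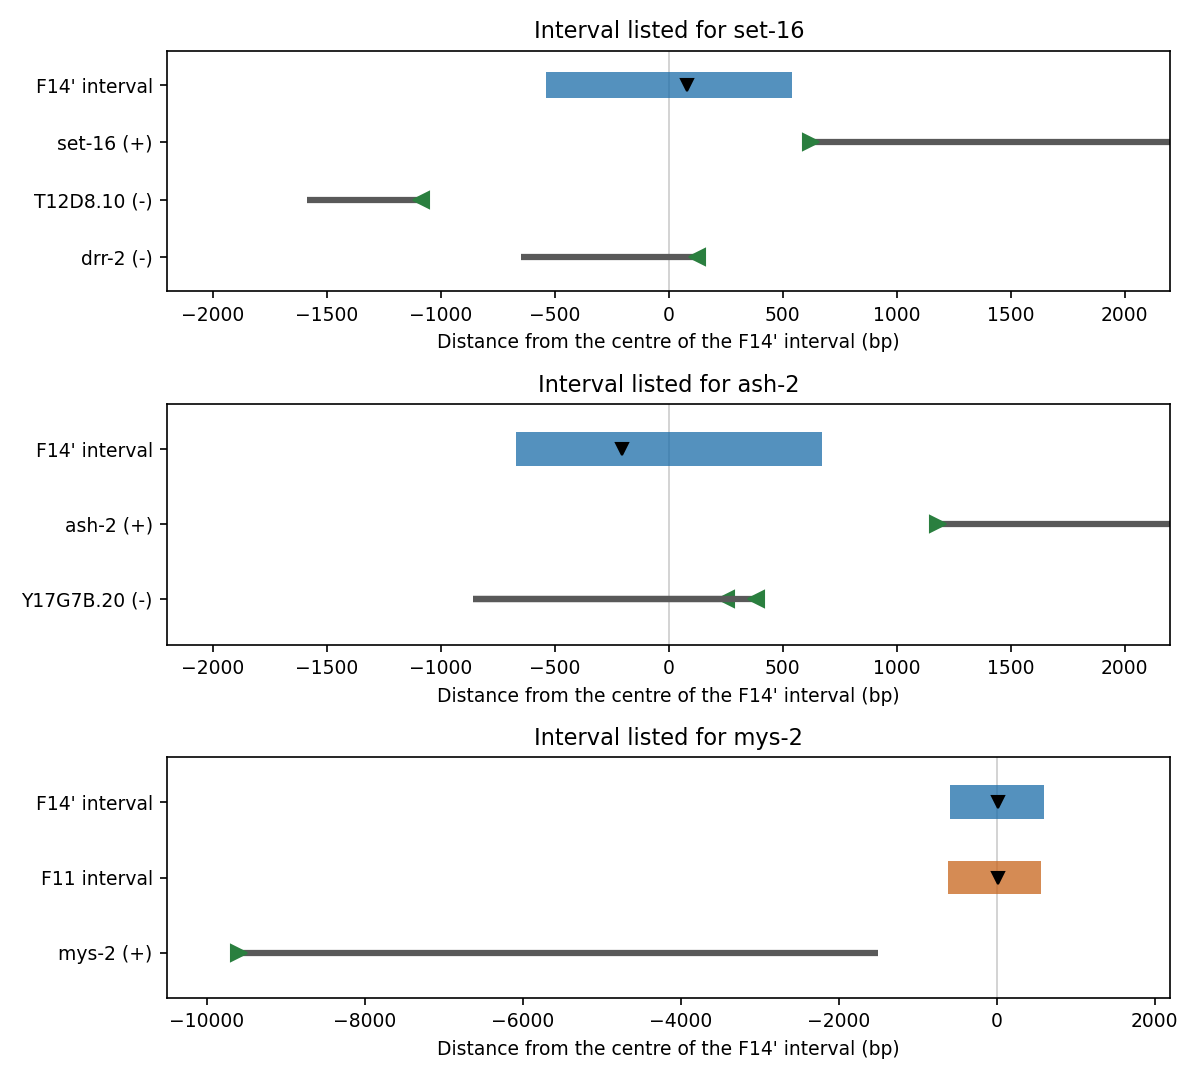
Intervals (bars, F14' in blue and F11 in orange), their summits (black triangles) and the listed genes (lines, with green arrowheads at the starts pointing along the strand), by distance in bp from the centre of the F14' interval. The set-16 and ash-2 lines run off the panel. The starts of set-16 and ash-2 lie 87 and 510 bp outside their intervals, those of drr-2 and Y17G7B.20 lie inside, and both mys-2 intervals lie past the end of that gene.

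The ash-2 interval held 410 tags, or 306 tags per kb (exact Poisson 95% interval 277 to 337). That was 1.01 times the F14' median density, against 0.973 times for set-16, and the counting intervals of the genes overlap. The ash-2 fold was 2.57, rank 237 of 639, and its score was 67.9, rank 304. By fold set-16 stood above ash-2, and by score and tags per kb ash-2 stood above set-16.

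Both intervals were listed for neighbours that lie nearer to them. Of the 639 F14' intervals 60.1% were classed as promoter, and so were 2 of the 3 intervals of the genes described here. Among the 384 promoter intervals of F14', 102 were listed with several genes, and 59 with genes whose starts face apart. Exactly 1 start of the closest such pair lay inside the interval at 16 of these 59, as at set-16 and ash-2, both starts lay inside at 32, and neither at 11. The median gap between such starts was 380 bp. Of the 847 gene names in the F14' table, 234 (27.6%) were never the nearest of the listed genes, and set-16 and ash-2 are 2 of them. The F11 table, in which 42.1% of intervals were classed as promoter, listed 1 gene at each of its 40 promoter intervals, and several genes at 1 of its 24 upstream intervals. Whether the tables were annotated by different rules was not tested.

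No F11 interval lay at either place. The nearest F11 interval to that of set-16 was 558 kb away at Y39E4B.13, and the nearest to that of ash-2 was 151 kb away at pes-5. Among F14' promoter intervals, 27 of 384 (7.03%) overlapped an F11 interval, so a promoter interval without an F11 counterpart was the usual case. The 316 tags of set-16 in F14' were also fewer than in any F11 interval, where the lowest count was 346. In all 47 F14' intervals (7.36%) held fewer than 346 tags. By tags per kb set-16 was within the F11 range, at 293 beside a lowest F11 value of 260. The 410 tags of ash-2 were within the F11 range, in which 8 of 95 intervals held at most 410. Tags outside listed intervals were not analysed here, so the F11 density at set-16 and ash-2 is not known.

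The mys-2 interval lay at the other end of its gene. In F14' it covered chromosome I from 14127740 to 14128928 (1189 bp), and in F11 from 14127713 to 14128895 (1183 bp). The gene runs along the plus strand from 14118745 to 14126837 in the authors' tables. The interval began 903 bp past the gene's end in F14' and 876 bp past it in F11, and its centre was 9589 bp from the start in F14' and 9559 bp in F11. Both tables classed it as intergenic and listed mys-2 as its only gene. Intergenic intervals made up 13.1% of F14' and 28.4% of F11 intervals. Of these, 73 of 84 in F14' and 24 of 27 in F11 lay past the end of the assigned gene, and none in either table lay upstream of its start. That absence may follow from the classes, because a separate upstream class held 132 intervals in F14' and 24 in F11. Only 1 intergenic interval in each table was centred farther from its assigned start than that of mys-2.

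No row of either table names kal-1, the gene that follows mys-2 in the RefSeq gene order of assembly WBcel235. kal-1 is the worm counterpart of the human gene for anosmin, an extracellular protein of neuronal development. That assembly is not the build of the tables, so no distance from the interval to kal-1 was taken.

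The F14' and F11 intervals of mys-2 were nearly the same stretch. They shared 1156 bp, which is 97.2% of the F14' interval and 97.7% of the F11 interval, and their summits were 1 bp apart. It is the only one of the 3 genes with an interval in both tables. Over all intervals, 8.45% of those in F14' and 55.8% of those in F11 overlapped an interval of the other table by at least 1 bp.

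At mys-2 the tag density was lower and the deposited fold higher in F14' than in F11, as at 15 of the 54 pairs of overlapping intervals, mys-2 included. The interval held 562 tags in F14' and 725 tags in F11. Per kb these were 473 tags in F14' (exact Poisson 95% interval 434 to 513) and 613 in F11 (569 to 659), and the counting intervals do not overlap. The density in F14' was 0.771 times that in F11 (exact conditional binomial 95% interval 0.69 to 0.862). The deposited fold was 6.27 in F14' and 4.72 in F11, and the score was 495 in F14' and 55.2 in F11. The fold in F14' was 1.33 times that in F11, beside a median of 1.24 over the 54 pairs, of which 37 had the higher fold in F14'. The F11 interval had a false discovery rate of 100% in the authors' table, as had 94 of the 95 F11 intervals.

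**Figure D2:**
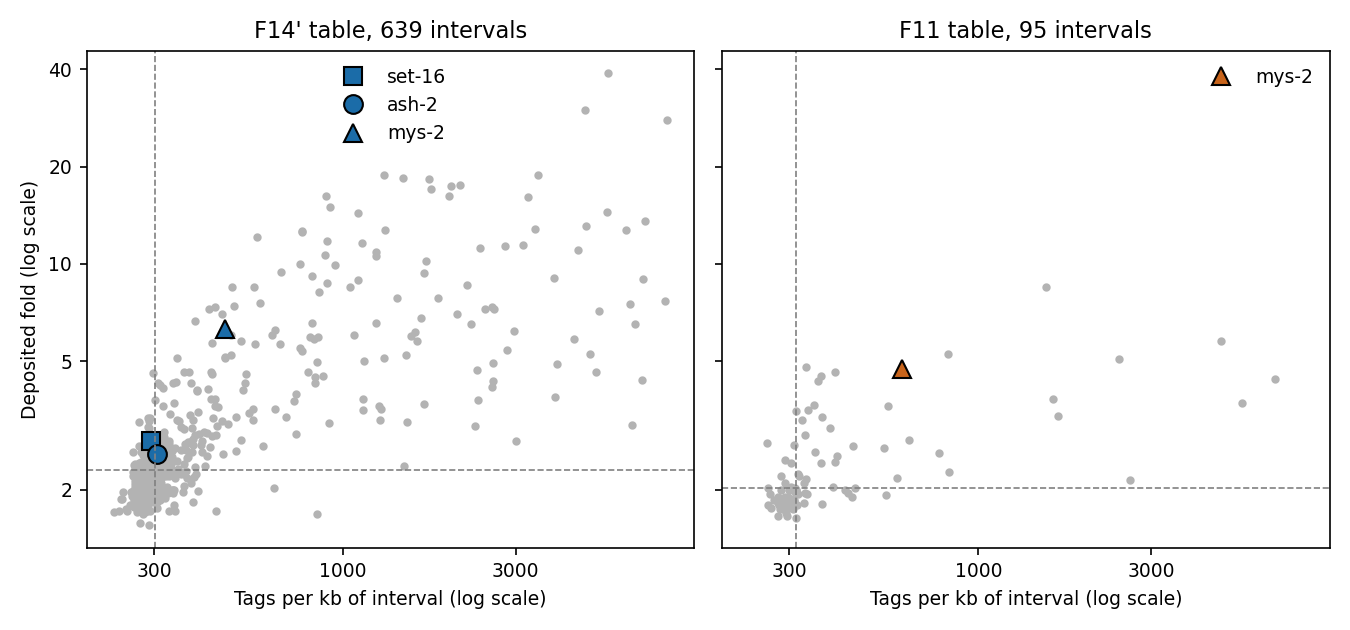
Deposited fold against tags per kb, both on log scales, for every interval of F14' (left) and F11 (right). Coloured symbols are the genes described and dashed lines the medians of each table. In F14', set-16 and ash-2 sit near the median of 301 tags per kb and mys-2 above it at 473, while in F11 mys-2 sits at 613 tags per kb.

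Library depth could not be measured, so the mys-2 ratio was set beside those of all 54 overlapping pairs of intervals. Their density in F14' was a median of 1.03 times that in F11, and they ranged between 0.771 and 2.02. The ratio at mys-2 was 0.75 times that median and the second lowest of the 54. The pair below it, listed as Y102F5A.1 in F14' and as C34E11.9 in F11, had almost the same ratio. In 7 of the 54 pairs, mys-2 among them, the whole counting interval lay below 1. With 1 library a group, these ratios hold no replicate error.

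**Figure D3:**
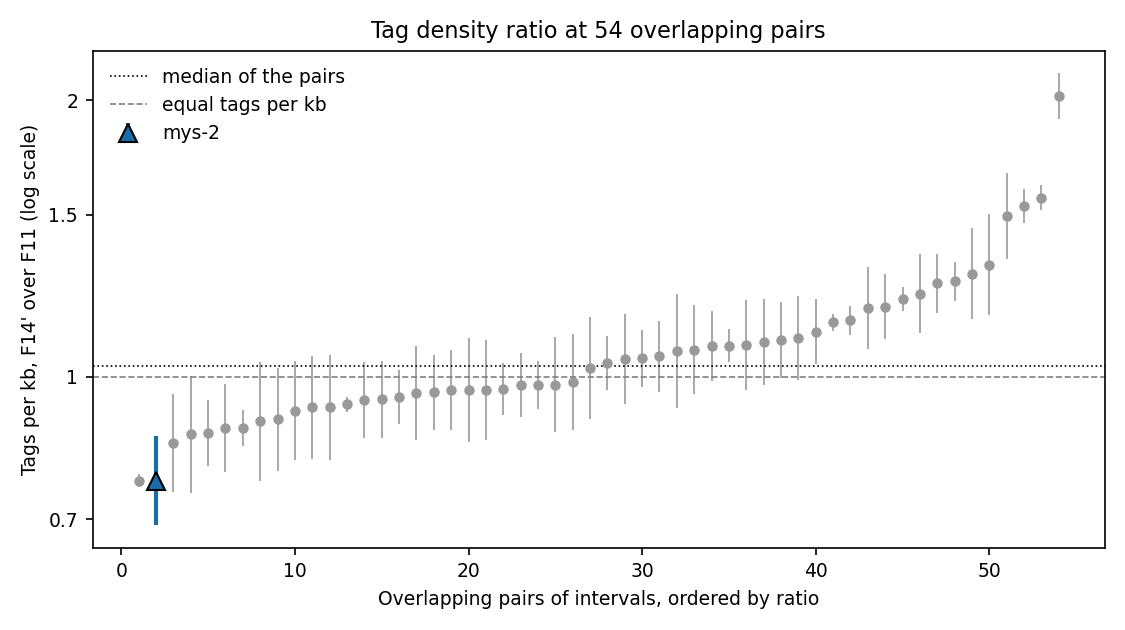
Ratio of tags per kb, F14' over F11 on a log scale, for the 54 overlapping pairs of intervals in order of the ratio, with exact 95% counting intervals. The dotted line is the median ratio of 1.03. The mys-2 pair (triangle) lies at 0.771, second from the low end.

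The background behind the scores differed between the tables at mys-2. It was computed as the Poisson mean at which the interval's tags have the deposited p. For mys-2 it was 235 tags per kb in F14' and 515 in F11. In F14' this was 0.998 times the median over intervals, and in F11 2.04 times, where 12 of 95 intervals had a higher one. The ratio of the F14' to the F11 background at mys-2, 0.455, was the lowest computed among the 54 pairs, whose median was 0.944. The next lowest was 0.457. Several other pairs had a score of exactly 3100 in F14', although the highest F14' score was 3233.06. If 3100 stands in for higher scores, their computed F14' background is only an upper limit. The rank of mys-2 and the median are thus not firm. At mys-2, tags were 2.01 times the computed background in F14' and 1.19 times in F11. These ratios are below the deposited folds of 6.27 and 4.72, so the fold is not the interval's tags over the computed background. For set-16 and ash-2 the computed background was 234 and 235 tags per kb, and tags were 1.25 and 1.30 times it. The background of all 3 genes in F14' was thus within 1% of the table median of 235, as in 254 of the 639 intervals (39.7%). In F11 3 of 95 intervals were that close to the table's own median of 253. That median lay above a level shared by several F11 intervals, with values such as 244.4, 244.6 and 244.7 tags per kb. The contrast between the tables thus depends on where the F11 median falls. The F14' table does not name the library behind its background. The folds of the tables and their ratios are therefore given as deposited values and not as a change in the mark.

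**Figure D4:**
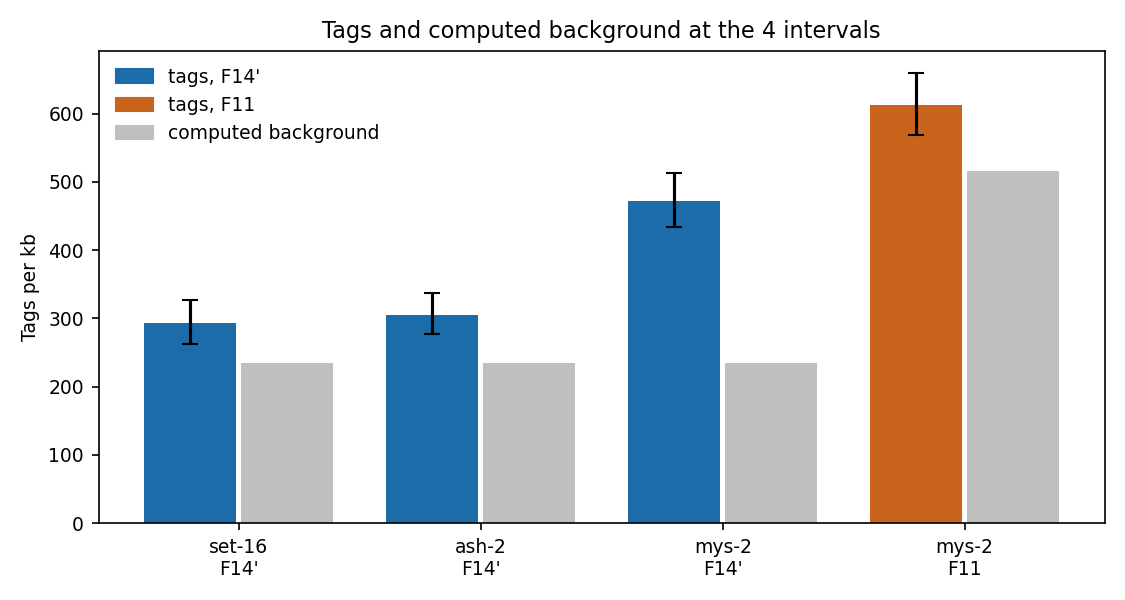
Tags per kb (coloured bars, with exact Poisson 95% intervals) and the background that tags and p imply (grey bars) at the 4 intervals of set-16, ash-2 and mys-2. The background lies near 235 tags per kb at the 3 intervals in F14' and at 515 for mys-2 in F11.

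Among themselves, mys-2 stood apart from set-16 and ash-2 in F14' in class, distance, fold, score and density. Its fold was 6.27, against 2.83 for set-16 and 2.57 for ash-2. Its interval had 473 tags per kb, above the counting intervals of ash-2 (306) and set-16 (293), which do not differ beyond counting error. By fold mys-2 ranked 69 of 639 in F14' and 6 of 95 in F11, and within its intergenic class 19 of 84 in F14' and 2 of 27 in F11. All 3 F14' intervals were narrower than the table's median width of 1788 bp. All 3 lay in the last part of their chromosomes, at 79.2% of the listed length for ash-2, 94.9% for mys-2 and 99.0% for set-16. The last 1 of 3 equal parts held 41.9% of all F14' intervals. The nearest other F14' interval was 10791 bp from that of ash-2, 64118 bp from that of set-16 and 108861 bp from that of mys-2.

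The intervals most like those of the 3 genes were found by likeness, which is the distance in log2 fold, log2 tags per kb and log2 width within 1 table. Closest to set-16 in F14' were the intervals of srt-29 (fold 2.91, 288 tags per kb), oat-1 (2.78, 298) and C49A1.5 (2.74, 296). Closest to ash-2 were those of srg-34 (2.61, 292), K07E8.7 (2.66, 316) and the unfolded protein response factor gene xbp-1 (2.70, 319). Closest to mys-2 were Y47H10A.4 (6.08, 464), C53C11.7 (5.70, 434) and 21ur-14135 (7.35, 443) in F14', and srh-245 (5.25, 824), clec-135 (4.63, 402) and T13G4.1 (4.49, 367) in F11. By fold in both tables, the pairs nearest to mys-2 were those of lgc-35 with pes-10 (6.19 in F14' and 5.08 in F11), clec-135 (5.76 and 4.63) and Y102F5A.1 with C34E11.9 (7.15 and 4.39). The density ratios of these pairs, F14' over F11, were 1.21 for lgc-35 with pes-10, 1.30 for clec-135 and 0.771 for Y102F5A.1 with C34E11.9, beside 0.771 for mys-2.

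Other genes of histone methylation and acetylation were mostly absent from both tables, as most reference genes were. In 5 lists of 58 genes, 57 had an entry in the reference gene table. Of the 55 list genes other than set-16, ash-2 and mys-2, 2 had an interval. Of all 58, 53 had no interval in either table. Over all 46926 reference genes, 1.78% were listed with an interval in F14' and 0.19% in F11. These reference genes were not narrowed to protein-coding genes, so the shares are not a matched comparison for the lists. The H3K4 methylation complexes had 2 of 16 genes with an interval in F14' and 0 in F11. Those 2 are set-16 and ash-2, which were chosen for being listed. Other genes of this H3K4 list, such as the enzyme gene set-2 and the core subunit genes rbbp-5, wdr-5.1 and dpy-30, had none. The list was not limited to known subunits of the complexes and also held set-9, set-17, set-26 and set-30. The H3K4 demethylase genes (spr-5, lsd-1, amx-1 and rbr-2), of which rbr-2 belongs to the family that acts on the trimethylated form, and 13 other histone methyltransferase genes, mes-2 and met-2 among them, also had none in either table.

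Among the acetyltransferases and their partners, 2 of 12 genes had an interval in F14' and 1 in F11. mys-2 was in both and was also chosen for being listed. The other was epc-1, which encodes the Enhancer of Polycomb subunit of the worm Tip60 complex. Unlike those of set-16 and ash-2, the epc-1 interval (chromosome III, 12607249 to 12608632) contained the start of the gene itself (minus strand, 12608257). It held 466 tags, or 337 tags per kb (307 to 369), with a fold of 2.53 and a score of 129.7. The deacetylases had 1 of 12 genes in F14' and 0 in F11. This was hda-6, a counterpart of mammalian HDAC6, with an interval on chromosome IV (5363530 to 5364951) centred 27 bp from its start. It held 406 tags, or 286 tags per kb (258 to 315), with a fold of 2.34 and a score of 41.7. The counting intervals of tags per kb of epc-1, hda-6, set-16 and ash-2 overlap, and that of mys-2 in F14' lies above all of them. No F11 interval overlapped those of epc-1 and hda-6.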

How the data were processed

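H3K4me3 ChIP-seq of 3 libraries (F14', F11 and control) was used as annotated interval tables for F14' and F11, called per sample. Build ce10, MACS 1.4.0rc2 and Bowtie2 2.1.0 are named in the submitters' processing notes. Per the file headers, the authors deposited a tag count without normalization, a fold (a ratio over the caller's background), a score of -10 log10 p, and, for F11, an FDR in percent. The total depth is unknown. The genes and lists were chosen with earlier results of these data known.

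Rows (1025 in F14', 103 in F11) were collapsed to unique intervals. Deposited distances equal those from the interval centre within 0.5 bp. RefSeq identifiers were matched to a WBcel235 gene table used for names and order (913 of 923 in F14', 95 of 100 in F11). mys-2 was matched by symbol. Named genes are the 3 genes, those listed for their intervals, list genes with an interval, and the 3 intervals most like each. kal-1, Y39E4B.13, pes-5 and the list genes without an interval were named after values were seen. Poisson and Clopper-Pearson intervals (95%) were exact. With 1 library a group no test was made. Alternatives were stricter scores, folds and FDR, nearest genes, merging, other distances, ranks and overlaps. The code was tested on simulated data. The software was scipy 1.17.1, pandas 2.3.3, numpy 2.4.6 and matplotlib 3.10.9, run in Python 3.11.15.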

Additional observations from a re-analysis of the deposited data

How the results depend on the processing

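Of 69 values recomputed under other settings, 30 are given here as moved. A count moved when it changed by over 1.5 times, a rank or ratio when it left the exact 95% interval of the main value, and a distance at any change. Density relative to a median is a change of unit and always stands among the 30. At a score of at least 100, 1 of the 3 genes kept its interval in F14' (mys-2) and 0 in F11, the H3K4 list had 0 genes in F14', the acetyltransferases 0 in F11 and the deacetylases 0 in F14'. With the nearest listed gene only, F14' had 1 of the 3 genes and the H3K4 list 0. At an FDR of at most 5%, F11 had 0. Within 3 kb of a start the acetyltransferases had 1 gene in F14' and 0 in F11. From the summit, the distances were -544 bp for set-16, -1386 bp for ash-2, and 9604 bp in F14' and 9605 bp in F11 for mys-2. From the nearer edge they were 87, 510, 8995 and 8968 bp. Relative to the table's median, density was 0.973 for set-16, 1.01 for ash-2, and 1.57 in F14' and 1.95 in F11 for mys-2.

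The share of intervals ranked below a gene was 70.4% for set-16, 62.4% for ash-2, and 89.2% in F14' and 93.7% in F11 for mys-2 by fold. By score it was 25.8%, 52.4%, 79.0% and 51.6%, and by tags per kb 41.6%, 52.7%, 79.3% and 86.3%. The cause of these shifts was not tested. Merging within 1 kb, a fold of at least 2, a fold above the median and other overlap rules kept each gene. No FDR setting could be run for F14'. No paired analysis was possible because each group has 1 library. Depth limits what can be said of places with no listed interval.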
